A study of Homo sapiens with 12 samples.

Results

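The comparison described here is the effect of EWS-FLI1 in ARID1A-knockout cells that overexpress a shortened form of ARID1A. Its members are the 4 libraries, of 12 in the series, whose labels name ΔIDR1b ARID1A, and they were chosen by those labels and not by any measured value. All 12 come from 293T, a human embryonic kidney line, in which ARID1A had been knocked out, so every control shares that knockout. Both groups of the 4 libraries overexpressed ARID1A lacking the segment IDR1b. One group (n = 2) additionally overexpressed EWS-FLI1 from 2 µg of a pcDNA plasmid, and the other (n = 2) received an empty vector in its place. The labels give 48 h of growth after transfection. The other 8 libraries are the same pair of groups in knockout cells with full-length wild-type (WT) ARID1A and in knockout cells with an empty vector in place of ARID1A, called no ARID1A here. The stated aim of the series was the part that IDR1b plays in gene regulation by EWS-FLI1. The model is a kidney-derived line and not a Ewing sarcoma line, and the labels name 1 knockout line for all groups.

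EWS-FLI1 is the fusion protein that drives most Ewing sarcomas. It joins the N-terminal, low-complexity part of EWSR1 to the ETS DNA-binding domain of FLI1, and it can bind repeats of the bases GGAA as well as single ETS sites. ARID1A is a large DNA-binding subunit of the canonical BAF form of the SWI/SNF complex, which moves nucleosomes. Long stretches of ARID1A are intrinsically disordered, and IDR1b lies in one of them. The heat-shock chaperones, which form a large part of the results, bind unfolded proteins in the cytosol and are switched on by the factor HSF1 at heat-shock elements, alternating repeats of GAA and TTC.

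Messenger RNA was selected by its polyA tail and sequenced, and the deposited values are fragment counts per gene. The 4 libraries held between 12893088 and 13719199 counts, and the 12 between 11702251 and 14445379. Levels are given as CPM, each count divided by its library size after TMM scaling (edgeR's trimmed mean of M-values) and expressed on a common total. A count of 0 allows up to 3 counts, or 0.209 to 0.219 CPM in 1 of the 4 libraries, counting error only. The repeats of a group differed beyond sampling noise in every group (chi-square over its degrees of freedom 4.33 for the empty vector and 6.41 for EWS-FLI1 with ΔIDR1b, and 12.6, the highest of the series, for EWS-FLI1 with WT). Of 10 marker genes of 293T cells, 9 stood at 1 CPM or more, and their sum was 800.1 to 820.2 CPM with the empty vector and 777.2 to 928.6 CPM with EWS-FLI1. The defining blood markers PTPRC, CD3E and MS4A1 were at 0 in all 4 libraries, as were COL1A2 of fibroblasts and UMOD of kidney tubule. Of the 6 markers of Ewing sarcoma lines, NR0B1 was at 0 in all 4 libraries, and the sum of the list was 58.5 to 65.7 CPM with the empty vector and 83.3 to 100.6 CPM with EWS-FLI1. CCND1 (42.0 and 50.2 CPM against 78.3 and 65.6 CPM) made up most of that sum and of its difference, while NKX2-2 and LIPI overlapped between the groups. The labels do not say whether repeats were separate cultures, so the p-values measure only the spread between these libraries, which may be technical.

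The introduced genes were read first, since they check the labels. FLI1 (chromosome 11, 128686535 to 128813267, GRCh38, as are all positions) had 3 counts in both empty-vector libraries together and 54090 counts in both libraries with EWS-FLI1, or 1887.5 and 1906.1 CPM. That is a ratio of 17494.3, with a 95% counting interval of 5985.9 to 84834.2. EWSR1 stood at 391.7 and 386.3 CPM with the empty vector and at 2043.9 and 2072.7 CPM with EWS-FLI1. Counts of FLI1 and EWSR1 include the plasmid, so neither tells of the cell's own gene. A further gene moved with them, ENSG00000215835, a processed pseudogene on chromosome 1 (166275629 to 166277597) that is 96.2% identical to an EWSR1 transcript over 1971 aligned bases. It went from 0.146 and 1.07 CPM to 67.2 and 62.0 CPM, and reads of EWSR1 and of this copy cannot be told apart with certainty. ARID1A itself did not separate the vectors beyond the test, with 2694.9 and 2878.5 CPM against 2608.2 and 2621.0 CPM (log2 fold change -0.09, SE 0.09, edgeR adjusted p = 0.991). In the libraries called no ARID1A, its RNA was not absent, at 164.5 and 147.4 CPM with the empty vector and 162.4 and 157.2 CPM with EWS-FLI1. That name therefore follows the labels and not the RNA. In these bulk samples more transfected cells and more RNA per cell cannot be told apart.

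With EWS-FLI1, a small group of genes rose, among them the noncoding LINC00659 and THBD, and cytosolic heat-shock chaperones fell, led by HSPA6. Of 20377 genes tested, 35 (0.172%) passed the threshold of 0.05 on the Benjamini-Hochberg adjusted p of edgeR's quasi-likelihood test and are termed called, 25 higher (0.123%) and 10 lower (0.0491%). At an unadjusted p under 0.05 there were 1110 genes (538 higher, 572 lower), and the median log2 fold change of all genes was 0.00. Setting aside FLI1, EWSR1 and the pseudogene, 22 genes rose and 10 fell. In all 32 the libraries of the groups did not overlap, which also held for 35.9% of all genes tested. The log2 fold change was at least 1 in 15 of them, -1 or lower in 5, and between these limits in 12. Of the 35 called genes, 17 passed the threshold in each of 24 alternative settings and 18 missed it in at least 1. The 17 include FLI1, EWSR1 and the pseudogene.

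The count of 35 moved with the libraries fitted and with the model. It was 23 without repeat 2 of ΔIDR1b with the empty vector, and 74 and 73 without repeat 1 or repeat 2 of WT with EWS-FLI1, libraries that are not part of the comparison. With trends in GC content and length removed it was 99, split into 51 higher and 48 lower, and the 35 genes were all among these. A model with repeats blocked within each vector gave 109 genes (58 higher, 51 lower), again with all 35 among them.

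Of the 10 falls, 7 were cytosolic chaperones, HSPA6, HSPA1B, HSPA1A, DNAJB1, HSPH1, HSPA8 and HSPB1. HSPA6, a strictly stress-inducible member of the HSP70 family (chromosome 1, 161524540 to 161526894), stood at 26.2 and 22.3 CPM with the empty vector and at 0.566 and 0.487 CPM with EWS-FLI1. Both libraries with EWS-FLI1 lay far under both controls, and the level was 45.3-fold lower (log2 fold change -5.50, SE 0.30, edgeR adjusted p = 2.86e-15). DNAJB1, the J-domain partner that feeds substrates to HSP70 (chromosome 19, 14514769 to 14560391), had 182.2 and 214.3 CPM against 50.8 and 59.6 CPM. The groups were far apart and its level was 3.59-fold lower (log2 fold change -1.84, SE 0.11, edgeR adjusted p = 1.09e-13).

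HSPA1B, an inducible HSP70 (chromosome 6, 31827738 to 31830254), had 633.5 and 688.8 CPM with the empty vector and 78.4 and 166.3 CPM with EWS-FLI1. Repeat 1 with EWS-FLI1 was the lowest, and both were well under the controls (log2 fold change -2.43, SE 0.17, edgeR adjusted p = 2.27e-12). Its neighbour HSPA1A lies 9.79 kb away with no tested gene between. Without repeat 2 with EWS-FLI1 the log2 fold change of HSPA1B was -3.08. HSPA1A showed the same order of the libraries with EWS-FLI1, 9.50 and 14.4 CPM against 0.779 and 4.38 CPM (log2 fold change -2.21, SE 0.35, edgeR adjusted p = 3.34e-04). The 2 genes are near-identical copies and fragments that matched both were not counted, so the split between them is uncertain. The log2 fold change of HSPA1A was -1.45 without repeat 1 and -3.93 without repeat 2 with EWS-FLI1. The call of HSPA1A was lost in the DESeq2 test, where its adjusted p was 0.142, the highest of a range from 1.33e-15 over 24 alternatives.

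The fitted falls of HSPA8, HSPH1 and HSPB1 were smaller, and the differences between genes were not tested. HSPA8, the HSP70 of unstressed cells, had 692.8 and 828.5 CPM against 409.5 and 592.1 CPM (log2 fold change -0.60, SE 0.12, edgeR adjusted p = 0.0171). HSPH1, a nucleotide exchange factor for HSP70, had 190.3 and 214.8 CPM against 136.0 and 125.8 CPM (-0.63, SE 0.11, edgeR adjusted p = 0.00351). HSPB1, a small heat-shock protein, had 181.3 and 154.3 CPM against 114.3 and 126.2 CPM (-0.48, SE 0.11, edgeR adjusted p = 0.0462). The groups did not overlap in any of these, but the call of HSPB1 was lost in 9 of 24 alternatives, among them each that left out 1 of the 4 libraries (range of the adjusted p 2.54e-06 to 0.941). HSPA8 missed the threshold in the DESeq2 test and without repeat 2 of the empty vector or repeat 1 with EWS-FLI1 (range 4.26e-11 to 0.962). HSPH1 missed it without repeat 2 of either group (range 1.05e-11 to 0.295).

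The chaperone list was drawn up as cytosolic, but HSPD1 and HSPE1 are mitochondrial and SERPINH1 is of the endoplasmic reticulum. It held 38 genes, of which 36 were tested. Of these, 7 were called lower and 0 higher, against 0.0491% of all genes called lower, 13 had an unadjusted p under 0.05 and 29 had a log2 fold change under 0. The median was -0.10, against 0.00 for all genes. This list and those below were chosen with earlier results of these data known, so such shares are not a test of a list. DESeq2 called 6 of the list, HSPA1B, HSPA6, HSPH1, DNAJB1, HSPB1 and HSP90AA1. The most abundant members that edgeR did not call were HSP90AA1, at 3097.1 and 3247.3 CPM against 2451.2 and 2552.4 CPM (-0.34, edgeR adjusted p = 0.133), HSP90AB1 (-0.07), HSPD1 (-0.10) and ST13 (-0.02). HSP90AA1 and HSP90AB1 are the inducible and the constitutive cytosolic HSP90. Of 19 endoplasmic reticulum chaperones and unfolded-protein-response genes tested, edgeR and DESeq2 called 0 each, 2 had an unadjusted p under 0.05, and the median was 0.07. HSPA5, the HSP70 of that compartment, had 622.1 and 721.9 CPM against 614.2 and 644.4 CPM (-0.09, edgeR adjusted p = 0.991). The difference between these lists was not tested.

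The sequences before the start sites are shown for HSPA6, HSPA1B and DNAJB1, the chaperones whose response also differed from that without ARID1A. Each is the 250 bases upstream of a RefSeq start site (GRCh38.p14), 5′ to 3′ on the gene's strand. Capitals mark 2-unit heat-shock elements, GAANNTTC or TTCNNGAA, and overlapping ones run together. The windows are chr1:161524290-161524539 (plus strand) for HSPA6, chr6:31827488-31827737 (plus strand) for HSPA1B and chr19:14518398-14518647 (minus strand) for DNAJB1, where the start used lies inside the span of the gene.
HSPA6: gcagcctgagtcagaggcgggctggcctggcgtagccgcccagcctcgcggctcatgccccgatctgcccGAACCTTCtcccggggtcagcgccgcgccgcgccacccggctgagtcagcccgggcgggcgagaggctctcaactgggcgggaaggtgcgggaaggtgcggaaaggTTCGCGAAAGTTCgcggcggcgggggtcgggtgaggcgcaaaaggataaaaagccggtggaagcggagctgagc
HSPA1B: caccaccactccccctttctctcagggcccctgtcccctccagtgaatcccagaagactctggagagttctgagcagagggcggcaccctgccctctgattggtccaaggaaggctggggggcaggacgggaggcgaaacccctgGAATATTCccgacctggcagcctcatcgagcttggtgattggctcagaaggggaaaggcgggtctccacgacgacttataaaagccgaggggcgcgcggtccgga
DNAJB1: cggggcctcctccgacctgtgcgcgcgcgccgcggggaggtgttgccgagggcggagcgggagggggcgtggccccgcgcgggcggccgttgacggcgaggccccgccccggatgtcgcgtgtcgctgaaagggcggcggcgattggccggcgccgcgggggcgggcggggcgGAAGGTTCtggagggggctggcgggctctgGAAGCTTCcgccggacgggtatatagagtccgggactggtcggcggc
The run TTCGCGAAAGTTC in HSPA6 holds 3 alternating units. HSPA1B has 1 element in capitals and DNAJB1 has 2. RefSeq gives 2 other start sites for DNAJB1, and their upstream windows (chr19:14529272-14529521 and chr19:14517938-14518187) hold 0 elements. A gene was counted as holding a motif where any of its promoters did.

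Motifs were searched on both strands of the 300-base promoters (250 before to 50 after the start) of the 12582 tested genes with a RefSeq entry. The 2-unit element was present in 6 of the 8 falling genes with a promoter, DNAJB1, HSPA1A, HSPA1B, HSPA6, HSPA8 and HSPB1, in 3 of 15 rising genes (CLSTN2, PTGS2 and RASIP1), and in 1745 genes (13.9%) overall. The 3-unit element (GAA, TTC and GAA, or TTC, GAA and TTC, with any 2 bases between units), which also contains 2-unit matches, was present in HSPA6 and HSPA8, in 0 of 15 rising genes and in 59 genes (0.469%) overall. Of the 7 called chaperones, 6 held the 2-unit and 2 the 3-unit element. Among chaperones that were not called, 11 of 24 (45.8%) held the 2-unit and 7 of 24 (29.2%) the 3-unit element. Both elements thus occurred in called and uncalled members, and the difference in their shares was not tested. The pair of ETS cores GGAAGGAA was present in 1 of 15 rising genes, RUBCNL, in 0 of 8 falling genes and in 589 genes (4.68%) overall. A run of 3 GGAA units was in 0 of the 23 called genes with an entry, and in 11 genes (0.0874%) overall.

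Among the genes that rose, several went from near silence to a low level. MIR3667HG, a noncoding host gene of a microRNA (chromosome 22, 49414524 to 49657542), had 0 counts in the controls and 48 with EWS-FLI1, which makes it at least 15.5-fold higher against a floor of 3 counts over the group. TG, the thyroid hormone precursor thyroglobulin, had 3 counts against 85, a ratio with a 95% counting interval of 9.09 to 136.0. Both calls were lost without repeat 1 or repeat 2 of the empty vector, that of MIR3667HG also without repeat 2 and that of TG without repeat 1 with EWS-FLI1, with the adjusted p reaching 0.297 and 0.228.

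LINC00659, a long noncoding RNA (chromosome 20, 62772980 to 62776996), had 1.68 and 1.5 CPM with the empty vector and 13 and 14.5 CPM with EWS-FLI1. Its level was 8.59-fold higher (log2 fold change 3.10, SE 0.35, edgeR adjusted p = 8.07e-07). THBD, which encodes thrombomodulin, the thrombin receptor of vessel walls (chromosome 20, 23045633 to 23049672), had 0.731 and 0.858 CPM against 6.72 and 5.98 CPM (log2 fold change 2.98, SE 0.40, edgeR adjusted p = 2.46e-05). In both genes every library with EWS-FLI1 stood far above every control. The endothelial markers summed to 2.79 to 3.22 CPM with the empty vector and 2.62 to 3.48 CPM with EWS-FLI1, so these overlapped between the groups while THBD did not. Of the 18 coagulation regulators tested, THBD was the 1 called, and the median of the list was 0.01.

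CLSTN2, LRRC4 and NGFR, which encode membrane proteins, also rose. CLSTN2, a calsyntenin of the postsynaptic membrane (chromosome 3, 139935185 to 140577397), had 1.46 and 1.93 CPM with the empty vector and 10.8 and 8.62 CPM with EWS-FLI1 (log2 fold change 2.51, SE 0.38, edgeR adjusted p = 1.71e-04). LRRC4, a synaptic adhesion protein that binds netrin-G (chromosome 7, 128027071 to 128032107), had 3.95 and 3.65 CPM against 12.7 and 14.9 CPM (1.86, SE 0.27, edgeR adjusted p = 1.19e-04). NGFR, the low-affinity neurotrophin receptor, had 13.7 and 15.5 CPM against 29.7 and 30.7 CPM. All 3 were higher in each library with EWS-FLI1 than in each control. The call of NGFR (log2 fold change 1.04, edgeR adjusted p = 0.00156) was lost without repeat 1 of the empty vector, at an adjusted p of 0.106. NGFR lies 264.5 kb from PHOSPHO1 on chromosome 17. The 4 tested genes between them were not called, and their log2 fold changes ran from -0.26 to 0.05.

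PHOSPHO1, a phosphatase of bone mineralization, had 3.44 and 2.43 CPM with the empty vector and 11.5 and 13.3 CPM with EWS-FLI1 (log2 fold change 2.07, SE 0.31, edgeR adjusted p = 1.71e-04). CYP4F22, a fatty acid hydroxylase needed for skin ceramides, had 5.92 and 5.50 CPM against 15.9 and 17.1 CPM (1.53, SE 0.22, edgeR adjusted p = 7.51e-05). PTGS2, which encodes cyclooxygenase-2 and makes the precursor of prostaglandins (chromosome 1, 186671791 to 186680922), had 13.1 and 15.7 CPM against 46.5 and 42.8 CPM. The groups were well apart in each of these genes, and PTGS2 was 3.10-fold higher (log2 fold change 1.63, SE 0.15, edgeR adjusted p = 2.78e-09). PTGS2 was the 1 called gene of 17 tested for prostaglandin synthesis and receptors, whose median was 0.19. The abundant synthase genes PTGES3 (-0.02) and PTGES2 (-0.12) were not called.

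SGK1, RND1, RASIP1 and MYO10 rose as well. SGK1, the serum- and glucocorticoid-regulated kinase (chromosome 6, 134169248 to 134318112), had 5.63 and 4.29 CPM with the empty vector and 15.1 and 17.5 CPM with EWS-FLI1 (log2 fold change 1.72, SE 0.21, edgeR adjusted p = 4.18e-06). It was the 1 called gene of 17 tested for glucocorticoid and osmotic responses, whose median was -0.01. RND1, which loosens the actin cytoskeleton, had 4.75 and 4.86 CPM against 14.4 and 14.7 CPM (1.60, SE 0.23, edgeR adjusted p = 1.23e-04). RASIP1, a Ras-interacting protein of blood vessel formation, had 11 and 13.6 CPM against 25.3 and 27.0 CPM (1.09). MYO10, a myosin of filopodia, had 41.1 and 49.8 CPM against 77.9 and 68.5 CPM (0.69). The groups were separate in all 4. Both RASIP1 and MYO10 missed the threshold without repeat 1 of the empty vector, and MYO10 also without repeat 1 with EWS-FLI1, with the adjusted p reaching 0.108 and 0.443.

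JUNB, IER2 and ZFP36 also rose. JUNB, an AP-1 subunit (chromosome 19, 12791486 to 12793315), had 77.1 and 69.7 CPM with the empty vector and 113.2 and 155.1 CPM with EWS-FLI1 (log2 fold change 0.87, SE 0.13, edgeR adjusted p = 1.71e-04). IER2, another immediate early gene, had 33.6 and 28.2 CPM against 49.5 and 58.6 CPM (0.81, edgeR adjusted p = 0.00416). ZFP36, which speeds the decay of AU-rich messenger RNAs, had 14.5 and 8.94 CPM against 21.4 and 24.3 CPM (0.96, edgeR adjusted p = 0.00405). The groups were separate in all 3. IER2 and ZFP36 missed the threshold without repeat 2 of either group, with the adjusted p reaching 0.402 and 0.745. JUNB and IER2 lie 357.1 kb apart on chromosome 19, and none of the 19 tested genes between them was called. Of the 37 AP-1, immediate early and ERK feedback genes tested, JUNB and IER2 were called higher and 0 lower, against 0.172% of all genes called. In the list 21 lay above 0 and 16 below it, and the median was 0.09. An unadjusted p under 0.05, in either direction, was found in 14 of the 37, against 5.45% of all genes. The most abundant members were not called, JUN at 2582.1 and 2740.8 CPM against 2152.5 and 2355.1 CPM (-0.24), JUND (-0.19), MCL1 (0.09) and DUSP1 (-0.34).

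CCND1, which encodes cyclin D1 and is an established target of EWS-FLI1 in Ewing sarcoma (chromosome 11, 69641156 to 69654474), had 42.0 and 50.2 CPM with the empty vector and 78.3 and 65.6 CPM with EWS-FLI1 (log2 fold change 0.64, SE 0.13, edgeR adjusted p = 0.0194). Its call was lost without either control or without repeat 1 with EWS-FLI1, with the adjusted p reaching 0.798. It was the 1 called gene of 29 tested on a list of genes that EWS-FLI1 activates in Ewing sarcoma, against 0.123% of all genes called higher. Of the list, 23 had a log2 fold change above 0 and the median was 0.12. An unadjusted p under 0.05, in either direction, was found in 7 of the 29, against 5.45% of all genes. The abundant members JAK1 (0.04), MYC (0.17), EZH2 (-0.03) and VRK1 (0.07) were not called, and NR0B1 had no count in the 4 libraries. KCNN1, a potassium channel gene of the same list and outside the naming rule, stood at 11.4 and 9.29 CPM against 18.0 and 18.8 CPM, with an edgeR adjusted p of 0.0609.

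The remaining rises were KDM7A-DT, RUBCNL, CHAC1 and SHISAL1. KDM7A-DT, a noncoding transcript divergent from the demethylase gene KDM7A, had 3.44 and 3.36 CPM with the empty vector and 15.3 and 12.5 CPM with EWS-FLI1 (log2 fold change 2.03, SE 0.25, edgeR adjusted p = 4.49e-06). RUBCNL, a regulator of autophagy, had 8.41 and 9.29 CPM against 14.3 and 19.0 CPM (0.91). SHISAL1 had 26.8 and 22.7 CPM against 41.1 and 43.4 CPM (0.77). The call of SHISAL1 was lost without any 1 of the 4 libraries and that of RUBCNL without each except repeat 1 with EWS-FLI1, with the adjusted p reaching 0.761 and 0.507. CHAC1, which degrades glutathione and is a target of ATF4, had 24.6 and 16.3 CPM against 59.5 and 26.9 CPM. Its lower library with EWS-FLI1 was barely above the higher control, and the edgeR adjusted p was 0.0476. The call of CHAC1 was lost in DESeq2 and without repeat 2 of the empty vector or repeat 1 with EWS-FLI1, with an adjusted p range of 4.65e-12 to 1.0 over all alternatives and a log2 fold change of 0.40 without that last library, against 1.08 with it. Of 18 ATF4 and integrated stress response genes tested, CHAC1 was the 1 called, against 0.172% of all genes, 15 lay above 0 and the median was 0.24. An unadjusted p under 0.05, in either direction, was found in 10 of the 18, against 5.45% of all genes. The list was not tested as a set. The abundant members ATF4 (0.16), ATF3 (-0.35), DDIT4 (0.00) and PHGDH (0.01) were not called by edgeR, and DESeq2 called ATF3.

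The other 3 falls were not chaperones. CCN1, a matricellular protein and a target of YAP (chromosome 1, 85580761 to 85584589), had 114.6 and 137.4 CPM with the empty vector and 83.2 and 96.3 CPM with EWS-FLI1 (log2 fold change -0.49, SE 0.11, edgeR adjusted p = 0.0435). SLIT2, a secreted guidance ligand for ROBO receptors (chromosome 4, 20251905 to 20620561), had 255.1 and 296.1 CPM against 197.8 and 207.1 CPM (-0.45, SE 0.10, edgeR adjusted p = 0.0428). Both calls were lost in 6 and 7 alternatives, among them those without repeat 2 of the empty vector or repeat 1 with EWS-FLI1 and those without any 1 library with no ARID1A, with the adjusted p reaching 1.0. ENSG00000237846 is a gene without a symbol on chromosome 9 (40105822 to 40106527). It had 38 counts against 4, a 9.79-fold ratio with a 95% counting interval of 3.53 to 37.8. Its call (edgeR adjusted p = 0.0197) was lost in 5 alternatives, among them those without repeat 1 of the empty vector or either repeat with EWS-FLI1 (highest adjusted p 0.555), and its log2 fold change went from -3.21 to -4.11 without repeat 2 with EWS-FLI1. CCN1 was the 1 called gene of 26 tested YAP and TEAD targets, whose median was -0.04, and of 13 tested genes that EWS-FLI1 represses in Ewing sarcoma, whose median was -0.19. The other abundant genes of the latter list, LOX (-0.25), ZYX (0.01), CDKN1A (-0.19) and FOXO3 (0.11), were not called.

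A further 4 lists held no called gene in edgeR or in DESeq2. They were the 20 ETS factors tested other than FLI1 (3 with an unadjusted p under 0.05, median 0.13), the 28 SWI/SNF subunits (3, median -0.04), the 24 interferon response genes (4, median 0.02) and the 19 p53 targets (2, median 0.14). Among SWI/SNF subunits, the ATPase gene SMARCA4 had 437.3 and 442.1 CPM against 394.8 and 438.0 CPM (-0.08), and the core subunit SMARCC1 had 265.8 and 263.4 CPM against 282.8 and 291.2 CPM (0.12). The interferon gene IFIT1 had 180.6 and 201.3 CPM against 212.1 and 189.8 CPM, so its groups overlapped (0.07). The p53 targets CDKN1A (-0.19) and MDM2 (0.23) were not called.

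The same genes were then followed in the other ARID1A states. With EWS-FLI1, 45 genes were called with WT (0.221% of those tested) and 9 with no ARID1A (0.0442%). Both counts, like the 35 with ΔIDR1b, include FLI1, EWSR1 and the EWSR1-like pseudogene, which the 32 genes leave out. With the block within each vector these counts were 119 and 17. Of the 32 genes called with ΔIDR1b, all had the same sign with WT, where 25 were called, and 31 had the same sign with no ARID1A, where 5 were called. The 32 were chosen by their effect with ΔIDR1b, so their own size there carries that choice. Their median absolute log2 fold change was 1.56 with ΔIDR1b, 1.48 with WT and 0.43 with no ARID1A. The effect was larger with ΔIDR1b than with WT in 17 of 32, and larger than with no ARID1A in 30 of 32.

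The difference between ΔIDR1b and no ARID1A was tested gene by gene, and 4 genes were called (0.0196%), with 702 at an unadjusted p under 0.05. Of the 32 genes, 17 had such an unadjusted p, against 3.45% of all genes. The 32 were chosen by their effect with ΔIDR1b, which is part of this difference, so an excess among them is partly built in. HSPA6 with no ARID1A went from 11.2 and 12.3 CPM to 4.26 and 4.06 CPM, a smaller fall than with ΔIDR1b (difference of log2 fold changes -4.01, SE 0.41, edgeR adjusted p = 2.97e-07). DNAJB1 there had 239.6 and 236.0 CPM against 220.1 and 193.6 CPM (difference -1.64, SE 0.16, edgeR adjusted p = 8.54e-08). HSPA1B had 537.3 and 583.6 CPM against 421.4 and 395.8 CPM (difference -1.98, SE 0.23, edgeR adjusted p = 3.20e-06). Compared with no ARID1A, the controls with ΔIDR1b were higher for HSPA6 (26.2 and 22.3 CPM) and HSPA1B and lower for DNAJB1. For HSPA1B and DNAJB1 the libraries with EWS-FLI1 lay further apart than the controls. For HSPA6 the libraries with EWS-FLI1 were lower with ΔIDR1b, at 0.566 and 0.487 CPM. PTGS2 with no ARID1A had 29.4 and 25.4 CPM against 34.3 and 32.1 CPM (difference 1.36, SE 0.20, edgeR adjusted p = 7.03e-04). Here the controls also differed between the states, since with ΔIDR1b they stood at 13.1 and 15.7 CPM. All 4 differences were called in each of 22 alternatives. FLI1 with EWS-FLI1 was 1.08 times as high with ΔIDR1b as with no ARID1A.

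For the other rises the difference from no ARID1A was not called. THBD had 2 counts there in the controls and 34 in the EWS-FLI1 libraries, a ratio with a 95% counting interval of 5.02 to 168.1. SGK1 went from 7.43 and 7.93 CPM to 20.3 and 20.8 CPM with no ARID1A, and the difference of its log2 fold change with ΔIDR1b from that was 0.30 (SE 0.29). LRRC4 had a difference of -0.18 (SE 0.44). CCND1 with no ARID1A had 16.2 and 17.7 CPM against 17.5 and 17.4 CPM, so its groups overlapped, and the difference of 0.60 (SE 0.20) did not pass the adjusted threshold. NGFR likewise had 12.3 and 9.95 CPM against 11.3 and 14.2 CPM (difference 0.85, SE 0.27, edgeR adjusted p = 1.0).

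Between ΔIDR1b and WT, edgeR and DESeq2 called 0 of 20377 genes (0.0%), and 741 had an unadjusted p under 0.05 in edgeR. Of the 32 genes, 1 had such a p, ENSG00000237846, whose fall was larger with ΔIDR1b (difference -2.04, SE 0.82). The interval of 2 SE around the difference ran from -0.29 to 0.51 for PTGS2, from -1.0 to 1.29 for HSPA6, from -0.82 to 0.08 for HSPA1B and from -0.01 to 0.62 for DNAJB1. For the rises LINC00659 and THBD it ran from -1.79 to 0.34 and from -1.93 to 0.46. These intervals leave room for differences of up to several-fold in the low-expressed genes, so the 0 calls do not show that the forms of ARID1A act alike. The amount of the fusion also differed, because FLI1 with EWS-FLI1 was 1.88 times as high with WT as with ΔIDR1b, and the part of that in the comparison was not tested. ARID1A RNA differed as well, with control means of 2786.7 CPM with ΔIDR1b and 2056.1 CPM with WT. With EWS-FLI1 it was 1.27 times as high with ΔIDR1b as with WT, and the part of that was not tested either. Without repeat 1 of WT with EWS-FLI1 the count was 26, and without repeat 2 of ΔIDR1b with EWS-FLI1 it was 2 (HSPA1B and FLJ13224).

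When repeats were blocked within each vector, the count between ΔIDR1b and WT was 10, all with a higher log2 effect under ΔIDR1b, and 12 with GC and length trends removed as well. Those 10 had an unblocked adjusted p of 1.0, and they are named with their values known. They were the ribosomal protein genes RPL38, RPS29, RPS28, RPL37A, RPS27 and RPS21, the ribosomal protein pseudogene RPS2P5, SEC61G of the protein translocation channel, ROMO1 of mitochondria, and FLJ13224. Under ΔIDR1b, RPL38 had 3614 counts in the controls and 4578 with EWS-FLI1, and 7588 against 5422 under WT (difference of log2 fold changes with the block 0.82). RPS29 went from 2990 to 3975 counts under ΔIDR1b and from 6565 to 5217 under WT (0.75). FLJ13224 had 3 counts against 26 under ΔIDR1b and 51 against 12 under WT. These counts are sums over the repeats of a group and are not scaled. The repeats of WT with EWS-FLI1 differed most in the series (chi-square over its degrees of freedom 12.6). Without repeat 1 of that group, and with no block, the difference was 1.21 for RPS29 and 1.04 for RPL38.

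Of the genes called with WT, 17 were not called with ΔIDR1b. Of these, 16 had the same sign with ΔIDR1b, 13 had an unadjusted p under 0.05 there, and 6 had an unadjusted p under 0.05 for the difference. KLF2 and NTSR1 were chosen after their values were seen. KLF2, a transcription factor induced by blood flow, had 16.4 and 12.1 CPM against 23.9 and 23.1 CPM with ΔIDR1b (log2 fold change 0.72), and 14.0 and 11.9 CPM against 34.0 and 48.6 CPM with WT (1.67). The difference was -0.95 (SE 0.26) with an edgeR adjusted p of 1.0. NTSR1, a neurotensin receptor, had 21 counts against 109 with ΔIDR1b, a ratio of 5.04 with a 95% counting interval of 3.14 to 8.46, and an edgeR adjusted p of 0.0609.

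**Figure D1:**
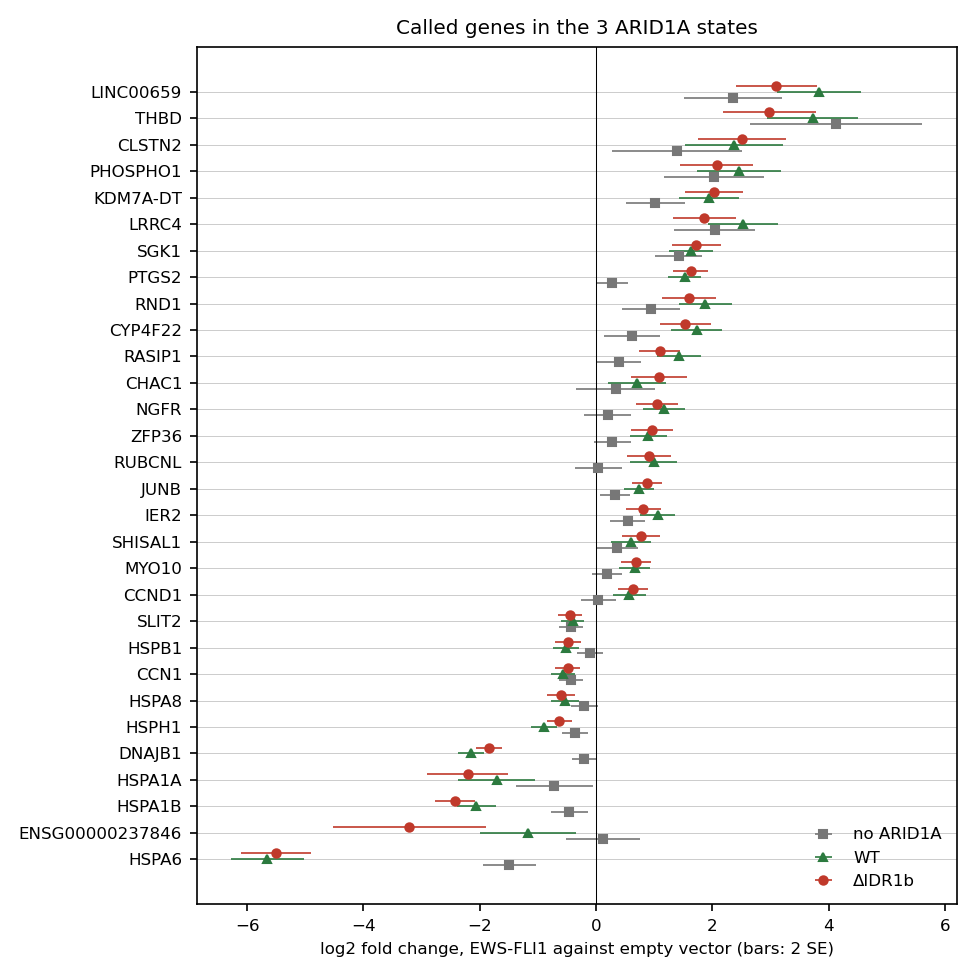
Log2 fold changes of EWS-FLI1 against the empty vector, with bars of 2 SE, for 30 of the 32 genes called with ΔIDR1b (MIR3667HG and TG, with 3 or fewer counts in a group, are left out), in knockout cells with ΔIDR1b (red circles), WT (green triangles) and no ARID1A (grey squares). Red and green markers lie close together for most genes, while the grey squares of PTGS2, HSPA6, HSPA1B and DNAJB1 lie nearer to 0.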

How the data were processed

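Polyadenylated RNA of 12 libraries in 6 groups of 2 was used, with groups taken from the labels. Per the file headers, the authors counted read pairs per gene name with featureCounts 2.0.1 on GENCODE release 41 (GRCh38, patch 13), with both ends aligned, no strand option and no counting of fragments that mapped to several places or several genes. The deposited counts carry no normalization. The submitters' processing notes name STAR, SAMtools and edgeR, with versions not given in the sources used here. Of 60645 gene names, 20377 passed filterByExpr (minimum count 10, minimum total 15), holding 99.79 to 99.87% of each library's counts. edgeR 4.0.16 (limma 3.58.1, R 4.3.3) fitted 1 mean per group to all 12 libraries with TMM factors, and a gene was called where the Benjamini-Hochberg adjusted p, over all genes, was under 0.05 (2-sided quasi-likelihood F-test). The SE is the size of the log2 fold change over the square root of F. DESeq2 1.42.0, other scalings, filters, blocks, GC and length trends (GENCODE 29 transcripts) and leaving out libraries were tried. On simulated data of this comparison (19762 genes, 200 changed) 76% of 2-fold and 94% of 4-fold changes were recovered, with 5 false calls. The changed genes were drawn only from those with a mean above 1 CPM in the ΔIDR1b libraries. Libraries were simulated independently, without shared repeat differences or GC and length trends, so these rates do not cover low-count genes or such structure.

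Genes named were ARID1A, FLI1 and EWSR1, the called genes without overlap between groups (up to 30 rises and 15 falls), called list members, genes called for a difference between states, and up to 4 uncalled members of each list by mean level. Repeat numbers paired libraries within a vector by their values, not by the labels: across 10636 genes the differences between repeats correlated at 0.103 to 0.416 between groups with the same vector, and at -0.214 between the 2 groups with ΔIDR1b. The members and lists were chosen with earlier results of these data known. Promoters come from RefSeq (GRCh38.p14) and were matched by symbol. Amplified fragments are not independent molecules, so counting intervals and floors hold for counting error alone.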

Additional observations from a re-analysis of the deposited data

Results flagged for a closer look

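In 4 genes the effect of EWS-FLI1 with ΔIDR1b differed from that with no ARID1A by a test of the difference itself (edgeR quasi-likelihood test, Benjamini-Hochberg). On the log2 scale the difference was -4.01 for HSPA6, -1.98 for HSPA1B and -1.64 for DNAJB1, which fell further with ΔIDR1b, and 1.36 for PTGS2, which rose further. These effects were not particular to ΔIDR1b. With WT the log2 fold changes were -5.65 for HSPA6, -2.06 for HSPA1B, -2.15 for DNAJB1 and 1.52 for PTGS2. With all 12 libraries, none of these genes was called for a difference between ΔIDR1b and WT.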

How the results depend on the processing

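Of the 35 genes called with ΔIDR1b, 17 were called in each of 24 alternatives, among them FLI1, EWSR1 and the EWSR1-like pseudogene. No named gene changed direction. The count for ΔIDR1b was 23 when a size of 1 or more on the log2 scale was also required, 56 with only the compared libraries fitted, 99 with GC and length trends removed, and 23 to 74 with single libraries left out. Without both WT libraries with EWS-FLI1, chosen after seeing the data, it was 67. The count for no ARID1A (9) was 16 without the filter on low counts, 16 with only the compared libraries, 16 without the trends, and 5 to 15 with single libraries left out. For WT (45) it was 24 at the log2 limit, 75 without the filter, 26 with only the compared libraries, 107 without the trends, and 24 to 230. The difference between ΔIDR1b and no ARID1A (4) ranged from 4 to 6 with single libraries left out. That between ΔIDR1b and WT (0) was 6 without the filter and 0 to 26 with single libraries left out. The cause of these shifts was not tested.

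The labels do not say what equal repeat numbers share. With a replicate block shared by all groups the counts were 35 for ΔIDR1b, 9 for no ARID1A, 44 for WT, and 4 and 0 for the differences. With a block within each vector they were 109, 17, 119, 4 and 10, and with the trends removed as well 153, 28, 204, 12 and 12. In the ΔIDR1b libraries alone, chosen after seeing the data, the block gave 60 genes and the crossed pairing 175. The 35 genes were all among the 109, the 99, the 153 and the 175, and 34 of them among the 60 and the 56. Groups of 2 and the depth limit what can be said of genes under about 1 CPM.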
